A study of Mus musculus with 48 samples.

Results

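The comparison set 12 AB1 tumours against 12 Renca tumours, all taken from mice that were later classed as non-responders to immunotherapy. These are 24 of the 48 tumours sequenced in the study, and they were chosen by 2 labels, the tumour line and the response class, so no measured value entered the choice. AB1 is a mouse mesothelioma line and Renca is a mouse kidney cancer line. Each had been injected under the skin of female BALB/c mice aged 8 to 9 weeks, and the whole tumour was removed surgically, on day 8 for AB1 and on day 10 for Renca. All tumours were taken before treatment, and all animals of both groups were assigned to the same antibodies, anti-CTLA4 plus anti-PDL-1. Each library came from a different mouse, and no library was a pool. The other 24 tumours, 12 of each line, came from mice classed as responders under the same scheme, and they are used here only to ask whether the line difference differs between response classes.

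A grafted tumour of this kind holds the injected cancer cells together with host stroma, vessels and leukocytes, and bulk RNA reads all of them at once. Fewer cells of a type and less RNA per cell cannot be told apart in such data. Mesothelioma arises from the lining of the body cavities and often keeps connective-tissue features, whereas kidney carcinoma arises from tubule epithelium, whose identity is held by transcription factors such as Pax2 and Pax8. Interferons, made by leukocytes and by stressed tumour cells, switch on antiviral genes, chemokines and antigen presentation, and this response is one of the best studied features of tumours given checkpoint antibodies.

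Total counts ran from 22360942 to 27838494 per library in the AB1 non-responders and from 16965492 to 24835933 in the Renca non-responders. The lines were never sequenced together: AB1 libraries 1 to 5 and 6 to 12 ran on one pair of flow cells and Renca libraries 1 to 6 and 7 to 12 on another pair. Line, flow cell and day of removal therefore cannot be told apart in any value given here. Within a line, edgeR's quasi-likelihood test called 0 genes between the second and the first flow cell. At an unadjusted p under 0.05 there were 1613 of 15677 genes in AB1 and 1239 of 15440 in Renca. With so few libraries per flow cell, 0 calls do not show that the flow cells were alike. The first principal component carried 77.1% of the variance and separated the lines, and the correlation of log2 CPM (counts scaled to a library total of 1000000) between libraries of different lines, 0.869 to 0.922, was below the lowest within AB1, 0.944, and within Renca, 0.977. AB1 tumours varied more among themselves, with a biological coefficient of variation of 0.281 against 0.151 in Renca. AB1 library 3 stood apart from the other 11 AB1 libraries. In it the skin genes summed to 1637 CPM against 10.9 to 466 in the others, Fn1 reached 25796 CPM against 3278 to 9258, Vegfa reached 791 CPM against 70.6 to 133, and Mki67, a marker of dividing cells, was at 194 CPM against 383 to 614. Without it the AB1 coefficient of variation was 0.229, and several results that rest on it are given with and without it. The log2 changes of some other genes that were highest in library 3 among AB1 tumours, such as Fn1, Mt2, Ndrg1, Cdh1 and Cgn, are given only with it.

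**Figure D1:**
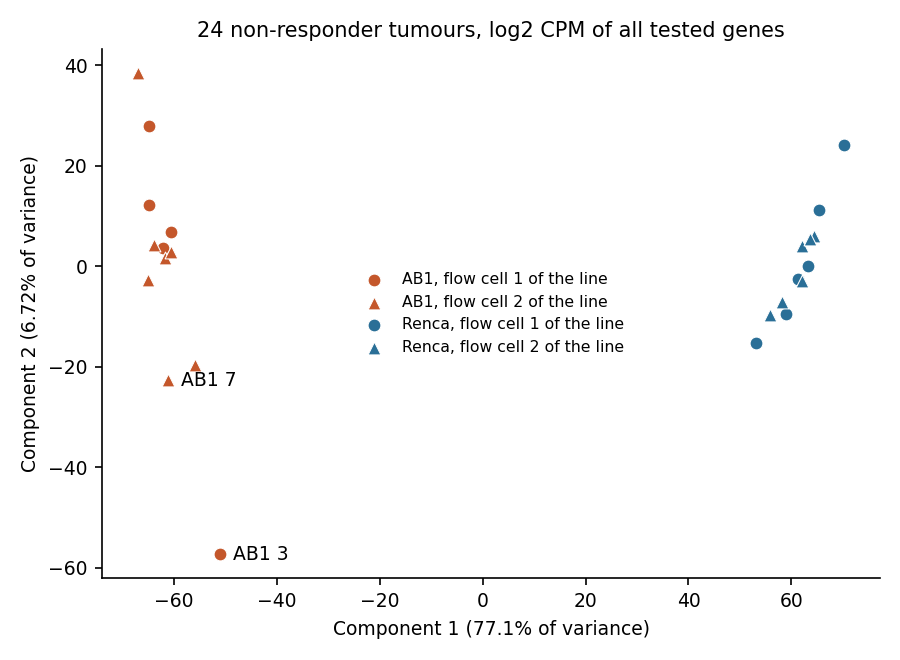
Each point is one non-responder tumour on the first (horizontal) and second (vertical) principal component of log2 CPM, coloured by line and shaped by flow cell within the line. The lines sit at opposite ends of the horizontal axis, which carries 77.1% of the variance, and AB1 library 3 lies far from the other AB1 tumours on the vertical axis, which carries 6.72%.

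Of 15647 genes tested, 5989 were higher in AB1 (38.3% of those tested) and 5965 were higher in Renca (38.1%) at an adjusted p under 0.05 by edgeR's quasi-likelihood test. Any list of genes has to be read against this background, in which most genes differ. Tested against a change of 2-fold rather than of 0, 1168 genes were past 2-fold toward AB1 (7.46%) and 1440 toward Renca (9.2%). In 5692 genes (36.4%) the 12 AB1 values and the 12 Renca values did not overlap. The median log2 fold change, AB1 over Renca, was 0.014 and the median size was 0.446, so most calls were small. The very large changes leaned to Renca: of 291 genes with a log2 change of at least 5 in size, 219 were higher in Renca and 72 in AB1.

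The largest differences included kidney epithelial genes present in Renca and nearly silent in AB1. Of 11 kidney lineage transcription factors tested, 5 were higher in Renca and 3 in AB1. Pax8, the tubule lineage factor (chr2:24420560-24475599 in the mouse build GRCm38), was at 0, 0.0381 and 0.0899 CPM (lowest, median and highest library) in AB1 and at 43.9, 54.7 and 67.3 CPM in Renca, a log2 fold change of -10.39 ± 0.20 (SE, adjusted p = 7.65e-24). No AB1 tumour came near any Renca tumour for this gene. Its relative Pax2 gave 1 count over all AB1 libraries and 5080 over the Renca libraries. Sall1, needed for the kidney to form, gave no count in AB1 and 42.6, 48.3 and 57.4 CPM in Renca, which is at least 4807-fold higher when AB1 is set to 3 counts over the group. The members that ran the other way included Foxc1 (log2 4.47 ± 0.19) and Eya1 (log2 1.46 ± 0.34, overlapping groups). Emx2 was at 22.6 CPM in AB1 and 22.8 CPM in Renca (medians) and did not pass (adjusted p = 0.647).

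The products of the tubule followed in part. Cdh16, kidney-specific cadherin, was at 0, 0.0181 and 0.134 CPM in AB1 and at 219, 284 and 353 CPM in Renca (log2 -12.87 ± 0.19, adjusted p = 5.1e-26). Wfdc2 (chr2:164562413-164568510), a secreted protein of epithelia, was at 0, 0.0415 and 0.169 CPM in AB1 and at 492, 564 and 626 CPM in Renca, the largest fitted change of all genes tested (log2 -13.54 ± 0.18, adjusted p = 5.5e-27). Both genes were at or near 0 in all 12 AB1 tumours. Lrp2, the endocytic receptor megalin, was also higher in Renca (log2 -7.01 ± 0.24), whereas its partner Cubn was slightly higher in AB1 (log2 0.83 ± 0.14), as was the water channel Aqp1 (log2 1.91 ± 0.12), which vessels and red cells also make. Over the 11 tubule transporters and enzymes tested, 5 were higher in Renca, 2 in AB1 and 4 did not pass. At 5 of 11 in each, the counts toward Renca of the lineage factors and of the tubule list lay near the background of 38.1% of all genes. All 5 of those lineage factors and 3 of those 5 tubule genes were past 2-fold, beside 9.2% of all genes. Other genes with 0 or 1 count in AB1 included Sult1c2, a sulfotransferase (at least 2416-fold higher in Renca), and Pklr, the liver and red cell pyruvate kinase (at least 1890-fold).

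For AB1 the check against mesothelial genes was weaker. Of 7 mesothelial genes tested, 3 were higher in AB1, 3 in Renca and 1 did not pass, and Upk3b and Calb2 were at or near 0 in both groups. Wt1, a factor of the mesothelium, was at 0.181, 1.35 and 8.05 CPM in AB1 and at 0.263, 0.572 and 0.821 CPM in Renca (log2 1.67 ± 0.44, adjusted p = 0.00128), so the groups overlapped, and the log2 change was 1.10 without AB1 library 3. Pdpn, podoplanin, ran toward Renca at 263 to 362 CPM against 47.4 to 120 CPM (log2 -2.01 ± 0.11). Cldn15, a claudin of the mesothelium, was at 2.44 to 5.96 CPM in AB1 and at 0.98 to 2.32 CPM in Renca (1.15 ± 0.14), without overlap. Of the 15 genes listed as mesothelial, 13 were in the table and 7 were tested. The 3 called higher in the tumours labelled mesothelioma and the 3 called higher in Renca lay near the background of 38.3% and 38.1% of all genes.

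What marked AB1 instead was a set of developmental and matrix genes. Mgp, matrix Gla protein, which restrains calcification, was at 1327, 2589 and 3490 CPM in AB1 and at 6.24, 12.2 and 20.6 CPM in Renca (log2 7.67 ± 0.22, adjusted p = 3.31e-20). Hmga2, a chromatin protein of embryonic and tumour cells, was at 155, 298 and 523 CPM in AB1 and at 1.83, 2.17 and 2.84 CPM in Renca (log2 7.19 ± 0.17, adjusted p = 4.34e-22). Both genes kept the lines fully apart. Col10a1, the collagen of hypertrophic cartilage, was at 115 CPM or more in every AB1 tumour and at most at 0.653 CPM in Renca (log2 10.16 ± 0.39), and Agtr2, an angiotensin receptor of fetal tissue, was at 30 to 236 CPM against 0 to 1.88 CPM (log2 8.17 ± 0.46). Ptprq, Rufy4, Cdh26 and Pax9 completed this group with log2 changes of 8.81, 7.91, 7.89 and 7.60 and no overlap. Tchh, the hair follicle protein trichohyalin, belongs to the list of largest changes only through AB1 library 3: it ran from 0.144 to 4240 CPM with a median of 0.783 CPM, and its log2 change of 7.61 became 2.66 without that library.

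**Figure D2:**
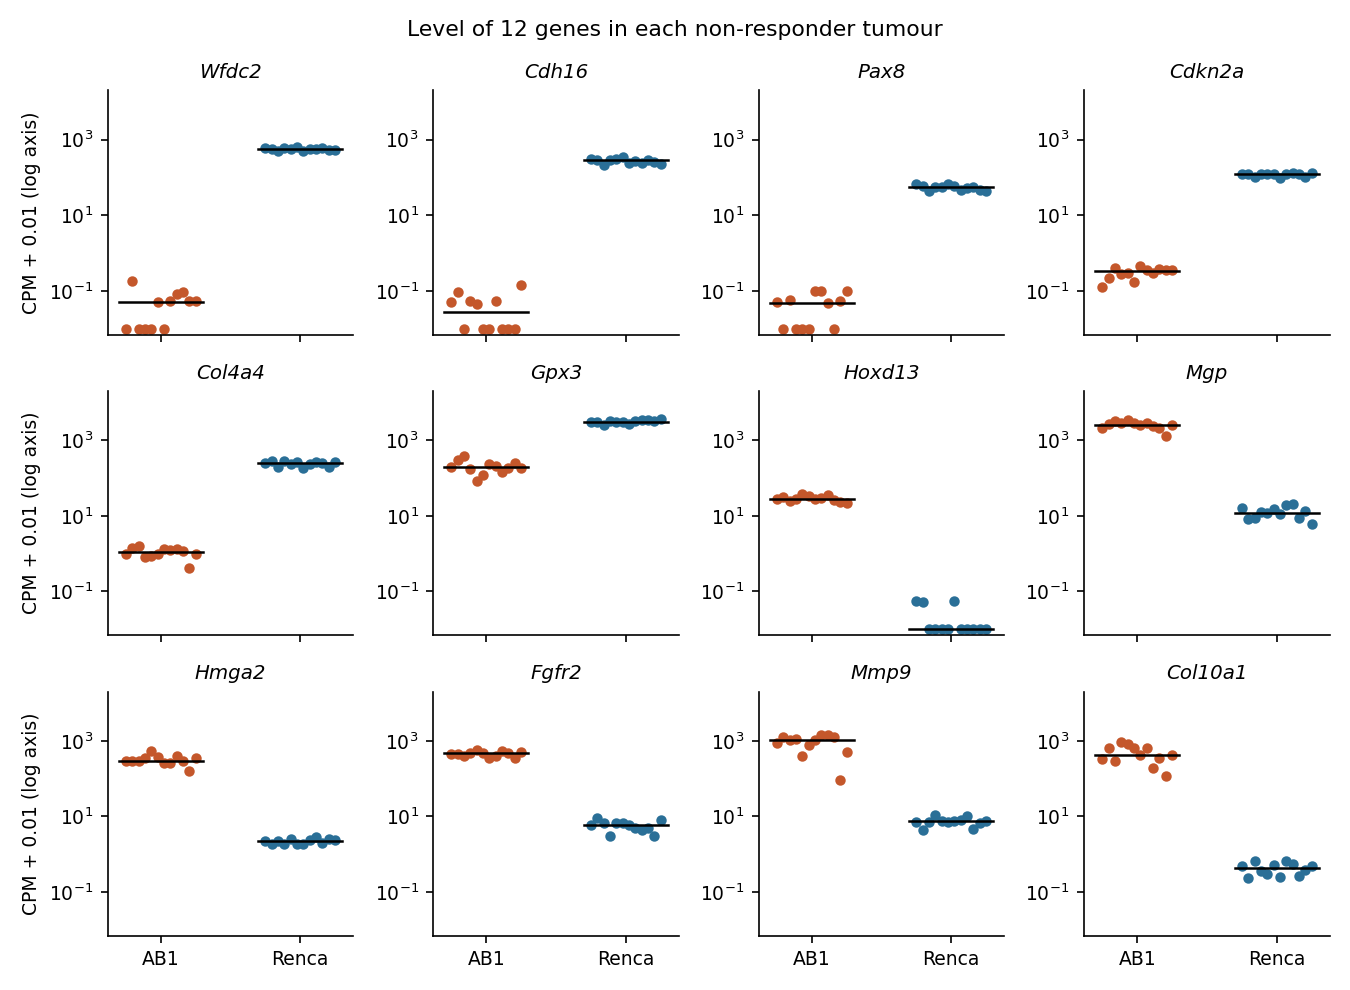
Each point is the level of one gene in one non-responder tumour, in CPM plus 0.01 on a log axis, with AB1 and Renca side by side and a bar at the median of 12. In all 12 genes the 2 lines are separated with no overlap, Wfdc2 to Gpx3 being higher in Renca and Hoxd13 to Col10a1 higher in AB1.

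The Hox genes, which record position along the body axis and stay set in cultured cells, also separated the lines. All 7 of the Hox B genes that passed, of 8 tested, were higher in Renca, led by Hoxb9 at 74.9, 89.8 and 105 CPM against 0.49, 0.801 and 1.29 CPM in AB1 (log2 -6.69 ± 0.11, adjusted p = 7.22e-25). Hoxb8 followed at log2 -2.70 ± 0.11 and Hoxb6 at -1.55 ± 0.07, and only Hoxb2 did not pass (log2 0.33 ± 0.15, adjusted p = 0.0584). At the ends of 2 other clusters the order was the reverse. Hoxd13 (chr2:74668310-74671599), the last gene of its cluster and known from digits and the genital bud, was at 22.5, 28.5 and 38.4 CPM in AB1 and gave 3 counts in all of Renca, a ratio of 2405 (823 to 11663). Hoxc13, known from nails and hair, was at 2.05, 2.55 and 33.1 CPM in AB1 and at 0, 0 and 0.206 CPM in Renca (log2 6.80 ± 0.74, and 5.83 without AB1 library 3, which held the highest value). Elsewhere in the A, C and D clusters the directions were mixed. In the A cluster 4 genes were higher in AB1 and 4 in Renca, with Hoxa9 and Hoxa10 toward Renca (log2 -0.73 and -0.99) and Hoxa2 and Hoxa3 toward AB1 (1.52 and 1.09). In the D cluster Hoxd9 and Hoxd10 were higher in Renca (log2 -1.13 and -1.12) while Hoxd3 and Hoxd11 were higher in AB1 (2.35 and 0.61). Hox loci also carry antisense transcripts, and whether the counting used strand is not given in the sources used here.

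**Figure D3:**
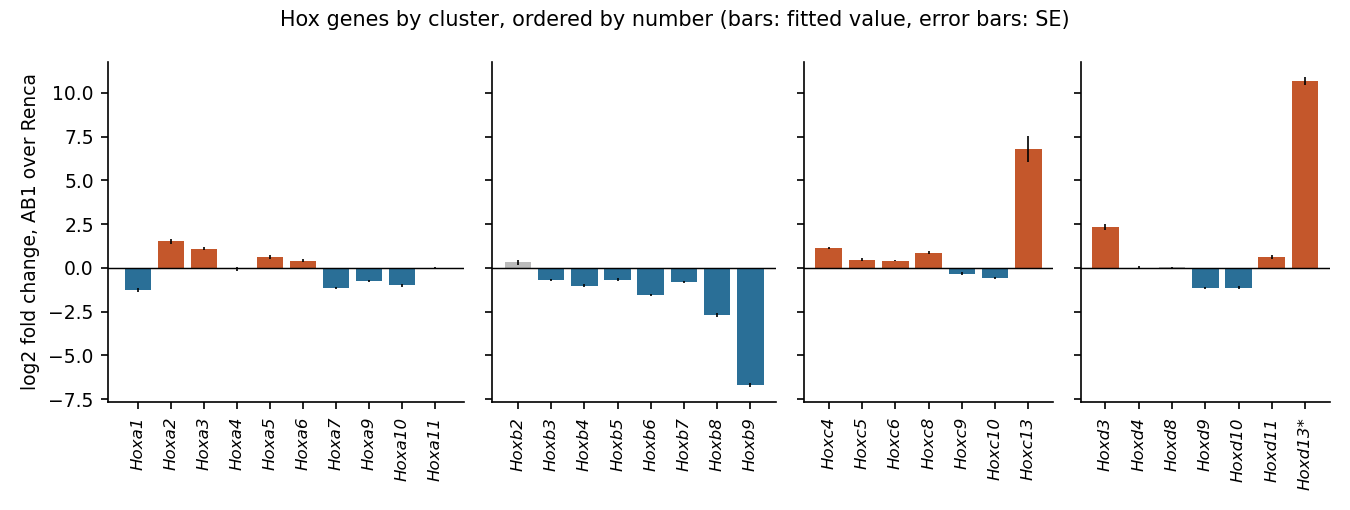
Bars give the log2 fold change, AB1 over Renca, of each tested Hox gene with its SE, in 4 panels by cluster and ordered by gene number, in orange where higher in AB1, blue where higher in Renca and grey where the adjusted p was not under 0.05. The B cluster lies below 0 except Hoxb2, Hoxb9 is the lowest bar at -6.69, and the tallest bars are Hoxc13 and Hoxd13, the star on Hoxd13 marking a gene with 3 counts in Renca.

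Epithelial junction genes were largely a Renca feature. Of 18 simple keratins and junction genes tested, 11 were higher in Renca, 3 in AB1 and 4 did not pass, with a median log2 change of -2.68 against 0.014 over all genes. Cdh1, E-cadherin, was at 3.89, 11.9 and 48.9 CPM in AB1 and at 81.6, 119 and 154 CPM in Renca (log2 -3.05 ± 0.29, adjusted p = 7.7e-10), with no overlap. Cldn3, a tight-junction claudin, was at 0, 0.0221 and 2.73 CPM in AB1 and at 53.7, 64.8 and 73.5 CPM in Renca (log2 -8.06 ± 0.50), Cldn4 at 0, 0.148 and 41.9 CPM against 45.6, 57.4 and 95.8 CPM (log2 -4.10 ± 0.86), and Cdh3, P-cadherin, at 0.0432, 0.188 and 20 CPM against 52.6, 69.8 and 102 CPM (log2 -5.38 ± 0.71). The AB1 maximum of all 3 genes came from library 3, and without it the log2 changes were -10.64, -8.01 and -8.22. The epithelial factor Elf3 gave log2 -6.80 ± 0.20 and the junction protein cingulin, Cgn, -4.13 ± 0.36. The 3 members that ran toward AB1 were Spint1, Krt7 and Ap1m2 (log2 2.52, 1.29 and 1.72), all with overlapping groups, and without library 3 Spint1 gave 1.21 and Ap1m2 was no longer called (0.11). Krt8-ps, a pseudogene copy of a simple keratin whose reads may come from its parent gene, was at 173 to 257 CPM in Renca and at most 0.479 CPM in AB1 (log2 -11.15 ± 0.27).

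The mesenchymal list leaned the other way but was not a mirror image. Of 19 genes tested, 13 were higher in AB1 and 5 in Renca, with a median log2 change of 0.69. Cdh2, N-cadherin, was at 33.1, 44.9 and 56 CPM in AB1 and at 4.23, 5.86 and 7.64 CPM in Renca (log2 2.97 ± 0.10, adjusted p = 4.06e-19), and Vim, vimentin, at 3008, 4186 and 5625 CPM against 1730, 1976 and 2807 CPM (log2 1.04 ± 0.09, adjusted p = 9.5e-11). Neither gene overlapped between the lines. Fn1, fibronectin, was at 3278, 5603 and 25796 CPM in AB1 and at 661, 900 and 1096 CPM in Renca (log2 3.07 ± 0.26). The factors Prrx1 and Prrx2 (log2 1.96 and 2.42) and S100a4 (2.38) were also higher in AB1. In Renca, Cdh11, the cadherin of osteoblasts and fibroblasts, stood at 144 to 245 CPM against 31.6 to 72 CPM (log2 -2.17 ± 0.12), and Tnc, tenascin C, at 1087 to 1714 CPM against 290 to 849 CPM (log2 -1.40 ± 0.15).

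Cdkn2a, which encodes the tumour suppressors p16 and Arf and is known to be lost in mesothelioma, was at 0.119, 0.319 and 0.449 CPM in AB1 and at 98.1, 122 and 129 CPM in Renca (log2 -8.62 ± 0.11, adjusted p = 2.17e-27). Its neighbour on chromosome 4, Mtap, a methionine salvage enzyme, was at 13.1, 14.4 and 17.7 CPM in AB1 and at 42.3, 47.6 and 51.1 CPM in Renca (log2 -1.71 ± 0.05, adjusted p = 9.67e-21). Both genes separated the groups, Cdkn2a with only trace reads in AB1 and Mtap with reads in every AB1 tumour. Copy number was not measured. Of 16 tumour suppressors of mesothelioma and kidney cancer, 11 were higher in Renca and 4 in AB1, mostly by little: Nf2 gave log2 -0.72 ± 0.04, Bap1 -0.60 ± 0.03 and Vhl -0.53 ± 0.06. Toward AB1 were Trp53 (0.75 ± 0.06) and the p53 target Cdkn1a (1.29 ± 0.11). Of 17 oncogenes and cell cycle drivers 8 were higher in AB1 and 3 in Renca, among them the 3 cyclins D, Ccnd1 (1.08 ± 0.08), Ccnd2 (1.18 ± 0.10) and Ccnd3 (0.76 ± 0.06), and none of the 17 was past 2-fold.

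Collagen genes differed chain by chain. Collagens were split evenly, 11 of 26 higher in each line, and Col1a2 did not pass (adjusted p = 0.624) while Col1a1 was higher in Renca (log2 -0.69 ± 0.15) and Col3a1 in AB1 (0.51 ± 0.13), all with overlapping groups. The chains of basement membrane collagen IV separated the lines. Col4a3 and Col4a4, the chains known from the kidney filter, were at 46.9 to 80.8 and 186 to 279 CPM in Renca and at most 1.12 and 1.58 CPM in AB1 (log2 -6.90 ± 0.16 and -7.79 ± 0.14). Col4a5, their partner in that network, ran the opposite way at 20.6, 27.7 and 38.1 CPM in AB1 and 0.643, 1.25 and 1.92 CPM in Renca (log2 4.50 ± 0.14, adjusted p = 1.63e-19), as did its neighbour on chromosome X, Col4a6 (4.28 ± 0.31). The widespread chains Col4a1 and Col4a2 differed by only 0.36 ± 0.08 and 0.42 ± 0.07. Col7a1, of anchoring fibrils, was higher in Renca at 143 to 288 CPM against 4.77 to 28.1 CPM (log2 -4.11 ± 0.23).

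Other matrix genes moved in both directions. Bgn, the proteoglycan biglycan, was at 4167, 5288 and 6325 CPM in AB1 and at 850, 1241 and 1651 CPM in Renca (log2 2.10 ± 0.09, adjusted p = 7.34e-17). Mmp9, gelatinase B, which macrophages, neutrophils and osteoclasts make, was at 89.6, 1036 and 1461 CPM in AB1 and at 4.43, 7.35 and 10.7 CPM in Renca (log2 6.98 ± 0.35, adjusted p = 2.1e-15). The lowest AB1 tumour was still above the highest Renca tumour for both genes. Over 20 matrix proteases and inhibitors 6 were higher in AB1 and 10 in Renca, the latter including Mmp10 (log2 -2.09 ± 0.19) and Mmp12 (-2.28 ± 0.40, overlapping groups). Fap, the fibroblast activation protein, and the fibroblast chemokine Cxcl12 were higher in AB1 (2.19 ± 0.14 and 1.65 ± 0.17), and Fbln1, fibulin 1, was higher in Renca at 358 to 537 CPM against 17.4 to 38 CPM (-3.97 ± 0.12). Among 12 bone and cartilage genes, 6 were higher in AB1, such as Phex (5.29 ± 0.37) and Dmp1 (3.74 ± 0.41), and 5 in Renca, such as Ibsp (-6.36 ± 0.51) and the osteocalcin copies Bglap and Bglap2 (-3.69 and -4.34), whose reads the counting could split.

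Growth factor ligands leaned to AB1. Of 31 ligands tested, 16 were higher in AB1, 13 of them past 2-fold, and 8 were higher in Renca, 3 past 2-fold. Over all genes 38.3% were higher in AB1 and 38.1% in Renca, and 7.46% and 9.2% were past 2-fold. The ligands of the epidermal growth factor receptor led it: Ereg, epiregulin, was at 27.4, 36.7 and 54.1 CPM in AB1 and at 0, 0.111 and 0.552 CPM in Renca (log2 7.41 ± 0.29, adjusted p = 8.61e-18), with Areg at 4.86 ± 0.40 and Btc at 4.11 ± 0.29. No Renca tumour reached the lowest AB1 value for any of the 3. The fibroblast growth factors followed, with Fgf10 at 15.4, 19.5 and 27.7 CPM against 0.237, 0.376 and 1.22 CPM (5.41 ± 0.20), Fgf7 at 4.87 ± 0.21 and Fgf2 at 2.82 ± 0.17. Their receptor Fgfr2 was at 356, 462 and 559 CPM in AB1 and at 3.01, 5.99 and 9.26 CPM in Renca (log2 6.30 ± 0.17, adjusted p = 5.51e-21). Ligand and receptor were thus both higher in AB1. Bmp2 and Bmp4 (5.32 ± 0.18 and 3.62 ± 0.18) and Hgf (3.21 ± 0.11) were also higher in AB1, and Pdgfra, a receptor of fibroblasts, at 2.21 ± 0.12.

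Toward Renca ran Gdf15, a stress-induced hormone, at 41.6, 73.3 and 84.3 CPM against 0.988, 2.05 and 2.96 CPM (log2 -5.10 ± 0.15, adjusted p = 2.22e-20), Gas6, a ligand of Axl (-2.05 ± 0.21), and Igf1 (-1.74 ± 0.16). Vegfa did not pass (log2 -0.09 ± 0.31, adjusted p = 0.798), AB1 library 3 at 791 CPM being above every Renca tumour and the other 11 AB1 tumours below every one. Without that library Vegfa was higher in Renca (-0.68). Among 15 Wnt ligands and inhibitors, 4 were higher in AB1 and 5 in Renca. Those higher in AB1 included the Wnt pathway genes Dkk2 and Dkk3: Dkk2 was at 167, 364 and 795 CPM against 3.73, 5.46 and 6.41 CPM (6.19 ± 0.23) and Dkk3 gave 2.90 ± 0.16. The ligands Wnt6 (-2.98 ± 0.19) and Wnt5a (-2.84 ± 0.47) were higher in Renca. Without AB1 library 3, which alone held Wnt5a at 22.9 CPM, Wnt5a gave -3.89 and the number of Wnt genes higher in Renca became 8.

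Interferon response genes were higher in AB1 in nearly every member tested. All 18 tested members of the interferon-gamma list were higher in AB1 (7 past 2-fold), with a median log2 change of 1.55, although in none of them were the 12 AB1 values clear of the 12 Renca values. Of 24 type I interferon response genes, 23 were higher in AB1 (10 past 2-fold), with a median of 1.15, and 8 did not overlap. Zbp1, a sensor of Z-form nucleic acid, was the exception (log2 0.16 ± 0.25, adjusted p = 0.563). Over all genes tested, 38.3% were higher in AB1, 7.46% were past 2-fold toward AB1 and 36.4% did not overlap. The 8 of 24 type I genes without overlap lay near that last share.

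Many genes of this response carry in their promoters the interferon-stimulated response element, to which the factor ISGF3 and interferon regulatory factors bind. Its core letters GAAANNGAA, searched on both strands in windows from 250 bases before to 50 after each RefSeq start (GRCm38.p6), occurred in 2812 of 32851 windows (8.56%) and in 974 of 12993 windows of genes tested here (7.5%). They occurred in 9 of the 15 type I list genes that have a window and in 11 of the 14 interferon-gamma list genes that have one, beside 921 of 10151 genes tested that have one (9.07%). The windows of 4 of the genes with a match are shown 5′ to 3′ on the strand of the gene, with the matching letters in capitals. They are examples, and only windows with a match are shown. Ubd, Cxcl11, Gbp4, Mx1 and Mx2, whose levels are given in the next paragraph, were not among the genes with a match.
Ifit1 promoter, chr19:34640639-34640938, plus strand: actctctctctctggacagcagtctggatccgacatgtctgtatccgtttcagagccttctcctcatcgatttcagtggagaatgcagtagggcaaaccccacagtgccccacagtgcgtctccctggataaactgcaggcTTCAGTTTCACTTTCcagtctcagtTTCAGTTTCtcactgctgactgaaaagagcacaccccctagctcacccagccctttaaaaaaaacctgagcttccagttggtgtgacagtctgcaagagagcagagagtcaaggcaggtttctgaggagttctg
Ifit3 promoter, chr19:34583279-34583578, plus strand: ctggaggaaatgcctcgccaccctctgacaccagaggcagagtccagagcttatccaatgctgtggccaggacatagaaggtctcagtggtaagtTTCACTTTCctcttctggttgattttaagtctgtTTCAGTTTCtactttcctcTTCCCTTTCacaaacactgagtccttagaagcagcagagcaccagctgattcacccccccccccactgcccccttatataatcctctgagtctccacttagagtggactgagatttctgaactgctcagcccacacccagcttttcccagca
Cxcl10 promoter, chr5:92348840-92349139, minus strand: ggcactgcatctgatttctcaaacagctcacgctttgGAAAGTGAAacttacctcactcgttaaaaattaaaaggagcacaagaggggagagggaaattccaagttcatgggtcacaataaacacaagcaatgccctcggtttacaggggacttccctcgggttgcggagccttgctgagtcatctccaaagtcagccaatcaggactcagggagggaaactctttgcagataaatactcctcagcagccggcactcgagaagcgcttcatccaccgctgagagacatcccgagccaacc
Gbp2 promoter, chr3:142620413-142620712, plus strand: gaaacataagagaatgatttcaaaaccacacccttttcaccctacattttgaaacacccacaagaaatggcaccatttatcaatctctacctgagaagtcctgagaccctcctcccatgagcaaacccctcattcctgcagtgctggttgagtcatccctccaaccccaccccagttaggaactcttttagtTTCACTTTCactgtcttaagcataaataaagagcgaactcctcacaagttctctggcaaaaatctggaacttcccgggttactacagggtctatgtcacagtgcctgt

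Ifit1 and Ifit3 each hold 3 matches, 2 of which overlap in Ifit1, and the other 2 genes hold 1 each. In Cxcl10 the match is on the strand of the gene and in the other 3 genes on the opposite strand, so that the reverse complement is printed. Ifit3, an RNA-binding antiviral protein, was at 98.9, 162 and 492 CPM in AB1 and at 19.3, 29.6 and 56.2 CPM in Renca (log2 2.67 ± 0.24, adjusted p = 1.65e-10), and its neighbour Ifit1 at 86.7, 143 and 348 CPM against 20.7, 32.7 and 59.8 CPM (2.27 ± 0.20, adjusted p = 1.28e-10). Every AB1 tumour was above every Renca tumour for both, as for the antiviral GTPases Mx1 and Mx2 (2.06 ± 0.21 and 1.93 ± 0.17). Cxcl10, the chemokine that draws T cells through Cxcr3, was at 46.1, 153 and 687 CPM in AB1 and at 11.4, 23.5 and 115 CPM in Renca (2.78 ± 0.43, adjusted p = 2.06e-06), and Gbp4, a guanylate-binding protein, at 149, 574 and 3190 CPM against 53.4, 124 and 467 CPM (2.69 ± 0.47, adjusted p = 1.17e-05). Gbp2 was at 170, 445 and 1757 CPM against 97.3, 183 and 538 CPM (1.70 ± 0.37, adjusted p = 0.000182). For these 3 and for Cxcl9 (1.53 ± 0.48, adjusted p = 0.00559), Cxcl11 (2.70 ± 0.49) and Ubd (2.79 ± 0.53) the groups overlapped, and the AB1 tumours themselves spread more than 10-fold. With the 5 AB1 tumours of the first AB1 flow cell against the 6 Renca tumours of the first Renca flow cell, 5 of the 18 interferon-gamma genes passed, and in the other 3 pairings of flow cells 13, 14 and 18.

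Antigen presentation genes were lower in AB1 or mixed. MHC class II genes, which dendritic cells, macrophages and B cells express and interferon-gamma can raise, were lower in AB1: 8 of 9 tested were higher in Renca, with a median log2 change of -0.67. H2-Aa was at 186, 672 and 963 CPM in AB1 and at 661, 1003 and 1458 CPM in Renca (log2 -0.72 ± 0.20, adjusted p = 0.00222), with overlap, and H2-Oa, a modulator of peptide loading, at 0.634, 1.78 and 2.43 CPM against 4.97, 6.07 and 7.58 CPM (-1.96 ± 0.17, adjusted p = 1.33e-10), without. The member higher in AB1 was Ctss, the protease cathepsin S (0.42 ± 0.16, adjusted p = 0.0222). Of 17 MHC class I presentation genes, 6 were higher in Renca, 3 in AB1 and 8 did not pass. The class I count toward Renca lay near the background of 38.1% of all genes. The classical chain H2-D1 was at 854, 1717 and 2838 CPM in AB1 and at 2898, 3599 and 4327 CPM in Renca (-1.11 ± 0.15, adjusted p = 3.43e-07), H2-K1 gave -0.83 ± 0.15 and the loading factor Tapbp -0.85 ± 0.18, while Psmb10, an immunoproteasome subunit, gave 1.21 ± 0.21. The core letters GAAANNGAA were found in 2 of the 16 class I windows (B2m and H2-T23) and in 1 of the 9 class II windows (Ctss). Among all windows of genes tested the share was 7.5%. The search covers this spacing alone, so a window without a match may hold another form of the element. Whether the letters go with the direction of change was not tested. With only the second AB1 flow cell, the class II count became 4 against the first Renca flow cell and 2 against the second, and the class I count became 3 without AB1 replicate 1, 2, 9 or 12, with upper quartile scaling and with no filter on low counts.

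**Figure D4:**
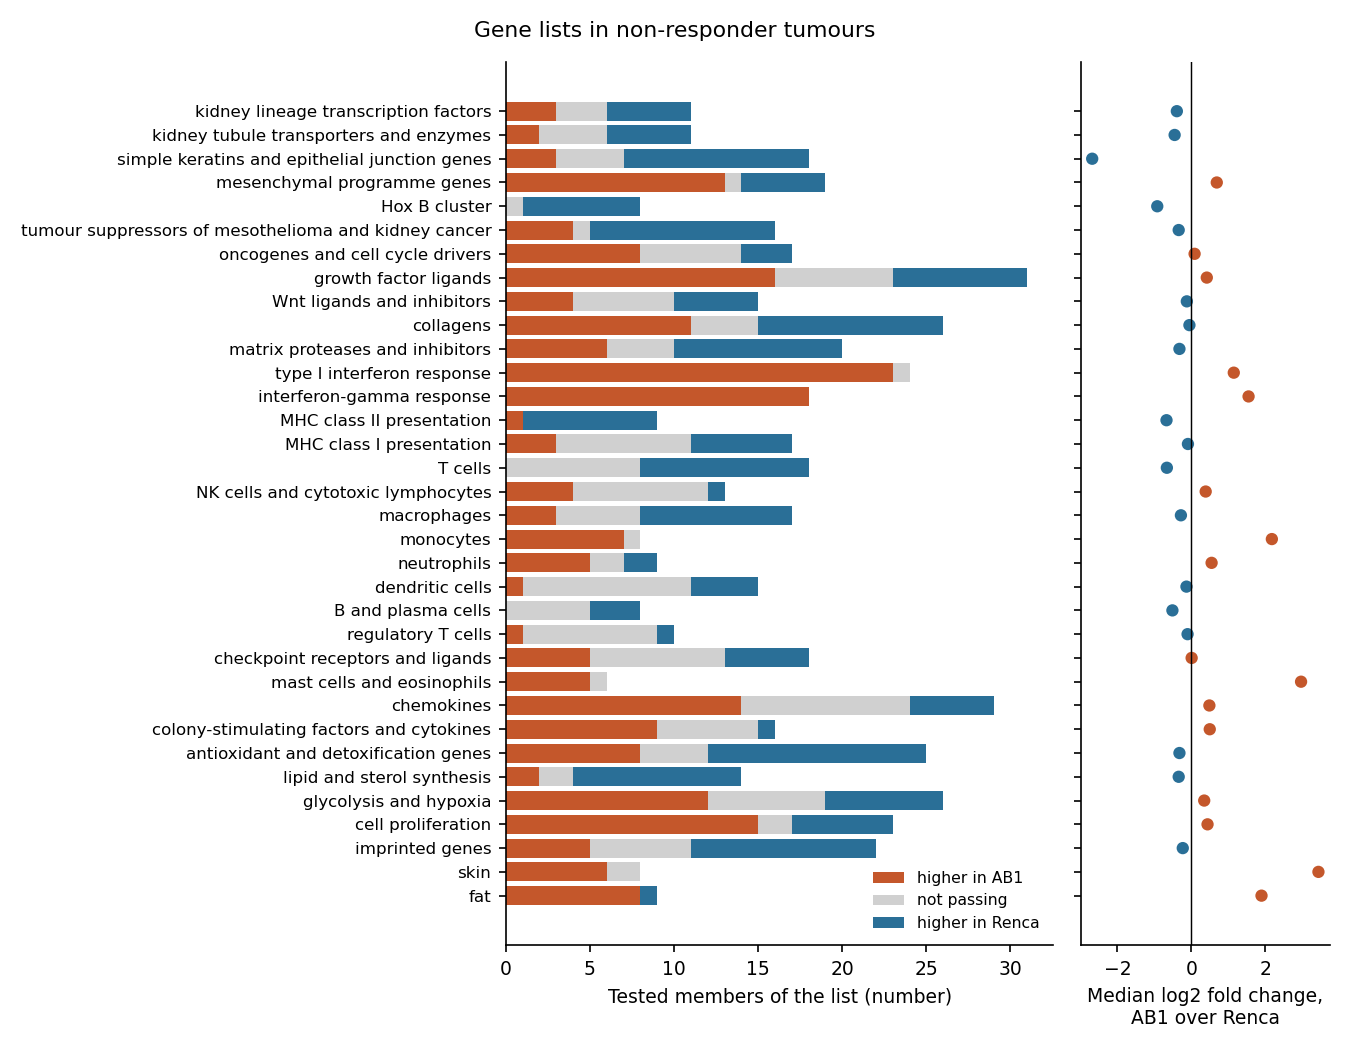
Left, the number of tested members of each gene list that were higher in AB1, did not pass or were higher in Renca at an adjusted p under 0.05, and right, the median log2 fold change of the tested members, AB1 over Renca. The interferon, monocyte and mast cell lists lie to the AB1 side and the T cell, MHC class II and epithelial lists to the Renca side.

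Lymphocyte genes differed by less than the interferon response. Of 18 T cell genes, 10 were higher in Renca and none in AB1, beside 38.1% and 38.3% of all genes. Their median log2 change was -0.66, and 2 were past 2-fold toward Renca, beside 9.2% of all genes. Cd8a, of cytotoxic T cells, was at 2.08, 7.52 and 9.84 CPM in AB1 and at 8.67, 19.3 and 37 CPM in Renca (-1.60 ± 0.26, adjusted p = 6.04e-06), Cd3e, of the receptor complex, at 1.2, 7.33 and 10.8 CPM against 5.63, 13 and 24.5 CPM (-1.07 ± 0.28, adjusted p = 0.00129), and Cd4 gave -0.64 ± 0.22 (adjusted p = 0.0104). The groups overlapped in all 3. Themis, a thymocyte signalling protein, stood apart from the list at 23, 30 and 52.2 CPM in Renca against 0.338, 1.31 and 2.38 CPM in AB1 (-4.63 ± 0.23, adjusted p = 1.54e-15). The summed T cell list ran from 55.2 to 277 CPM in AB1 and from 173 to 446 CPM in Renca. Among 13 genes of NK and cytotoxic cells, 4 were higher in AB1 and 1, Gzmk, in Renca, the former including Ncr1 (0.99 ± 0.28, adjusted p = 0.00264) and Klrk1 (0.84 ± 0.29, adjusted p = 0.0114). The NK count toward AB1 was not above the background of 38.3% of all genes, and none of the 13 was past 2-fold. Of 10 regulatory T cell genes 8 did not pass, Foxp3 among them (-0.58 ± 0.30, adjusted p = 0.0772). With the second AB1 flow cell against the first Renca flow cell, 4 T cell genes were higher in Renca, and with the first AB1 flow cell alone 0 and 1 NK genes passed toward AB1. Gzmk was no longer called without AB1 replicate 2, 3, 5, 9 or 12 or Renca replicate 3, at log2 -0.76 to -0.48 against -0.82 ± 0.34.

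Of 8 B and plasma cell genes 3 were higher in Renca, none in AB1 and 5 did not pass. The count toward Renca lay near the background of 38.1% of all genes, so the list as a whole did not stand out toward Renca. Pax5, the B lineage factor, was at 18.2, 23.7 and 32.5 CPM in Renca and at 0.178, 0.374 and 0.728 CPM in AB1 (log2 -5.87 ± 0.16, adjusted p = 8.58e-21). Bank1, a B cell scaffold protein, followed at -1.93 ± 0.15 without overlap and Jchain, which joins antibody chains, at -1.18 ± 0.37 (adjusted p = 0.0058) with overlap. Jchain was not called with either AB1 flow cell against the first Renca flow cell alone. The B cell genes Ms4a1 and Cd79a did not pass (adjusted p = 0.624 and 0.15), with medians of 0.366 and 0.743 CPM in AB1 and 0.509 and 0.846 CPM in Renca.

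The targets of the antibodies given after removal did not differ detectably before treatment. Ctla4 was at 2.04, 13.1 and 31.4 CPM in AB1 and at 6.33, 15 and 23.6 CPM in Renca (log2 -0.13 ± 0.34, adjusted p = 0.743), and Cd274, which encodes PD-L1, at 27.5, 74.1 and 300 CPM against 89.7, 102 and 166 CPM (0.05 ± 0.33, adjusted p = 0.889). The groups overlapped widely in both. Pdcd1, the PD-1 receptor, was lower in AB1 with an adjusted p of 0.0296 (-0.55 ± 0.23), a call lost without AB1 replicate 2, 9 or 12 or Renca replicate 3 or 11, at -0.51 to -0.43. Of 18 checkpoint genes 5 were higher in AB1, including Lag3 (1.02 ± 0.24), Havcr2 (0.95 ± 0.18) and Nt5e, which makes adenosine (1.62 ± 0.12), and 5 in Renca, including the poliovirus receptor Pvr (-1.22 ± 0.08) and its relative Nectin2 (-1.09 ± 0.08), ligands of Tigit.

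More monocyte genes were called toward AB1 and more macrophage genes toward Renca, with exceptions in both lists. Of 8 monocyte genes, 7 were higher in AB1 and 6 past 2-fold, beside 38.3% and 7.46% of all genes. The median log2 change of the 8 was 2.18. Plac8 was at 238, 336 and 783 CPM in AB1 and at 29, 38.1 and 62.4 CPM in Renca (3.20 ± 0.19, adjusted p = 5.8e-14), and Ly6c2, of inflammatory monocytes, at 61.5, 143 and 564 CPM against 28.4, 48.5 and 106 CPM (1.84 ± 0.34, adjusted p = 2.4e-05). The monocyte chemokine receptor Ccr2 did not pass (-0.06 ± 0.15, adjusted p = 0.73), so the list did not move as a whole. Of 17 macrophage genes 9 were higher in Renca and 3 in AB1, beside 38.1% and 38.3% of all genes, with 1 past 2-fold in each direction. Those higher in Renca were led by Gpnmb, a lysosomal membrane protein, at 675, 811 and 855 CPM in Renca against a median of 27.3 and at most 191 CPM in AB1 (-3.87 ± 0.39, adjusted p = 1.84e-09). Cd68 and Mrc1 gave -0.80 ± 0.05 and -1.04 ± 0.15, Csf1r only -0.28 ± 0.06, and Fcgr1, Msr1 and Timd4 were higher in AB1 (0.72, 0.46 and 1.68). Psap, the lysosomal prosaposin, was at 7712 to 9552 CPM in Renca and at 2160 to 3613 CPM in AB1 (-1.70 ± 0.07).

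Granulocyte genes were low in both lines and mostly higher in AB1. S100a9, a neutrophil alarmin, was at 3.65, 20 and 61.7 CPM in AB1 and at 0.889, 1.57 and 2.76 CPM in Renca (log2 3.60 ± 0.38, adjusted p = 3.65e-09), and the neutrophil receptor Cxcr2 at 2.56, 8.61 and 29.8 CPM against 0.614, 1.02 and 1.74 CPM (3.35 ± 0.34, adjusted p = 1.63e-09). Neither overlapped. Of 9 neutrophil genes 5 were higher in AB1 and 2 in Renca, these being Cxcl2 (-1.37 ± 0.31) and Lcn2, the iron-binding lipocalin 2 that epithelia also make, at 15.7, 18.3 and 37.1 CPM in Renca against 0.289, 3.68 and 11.3 CPM in AB1 (-2.31 ± 0.37, adjusted p = 3.22e-06). Of 6 mast cell and eosinophil genes, 5 were higher in AB1, all past 2-fold, beside 38.3% and 7.46% of all genes. The mast cell protease Cpa3 was at 11, 18.4 and 81.4 CPM against 0.218, 1.62 and 4.74 CPM (3.82 ± 0.38), and the receptor chain Fcer1a gave 4.41 ± 0.43. Siglecf did not pass (adjusted p = 0.0955). Dendritic cell genes showed little: 1 of 15 was higher in AB1 and 4 in Renca.

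More chemokines and cytokines were called toward AB1 than toward Renca, 14 against 5 of 29 chemokines and 9 against 1 of 16 cytokines. Over all genes the shares were 38.3% and 38.1%. Past 2-fold were 7 chemokines and 3 cytokines toward AB1 and 1 of each toward Renca, beside 7.46% and 9.2% of all genes. Cx3cl1, fractalkine, was at 136, 201 and 273 CPM in AB1 and at 5.85, 7.15 and 11.1 CPM in Renca (log2 4.78 ± 0.12, adjusted p = 9.99e-22). Cxcl5, a neutrophil chemokine, gave 3.98 ± 0.32, Ccl11, eotaxin, 2.39 ± 0.24 and the monocyte chemokine Ccl2 1.47 ± 0.27 with overlapping groups. Il33 (2.26 ± 0.23) and Il15 (2.07 ± 0.16) were higher in AB1. Csf2, which encodes GM-CSF, was the cytokine higher in Renca (-2.46 ± 0.21), as was the chemokine Ccl17 of dendritic cells (-2.19 ± 0.28). Between the first flow cells of each line 9 chemokines and 5 cytokines passed toward AB1.

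Among metabolic genes, those of detoxification differed in both directions. Of 25 antioxidant and detoxification genes 13 were higher in Renca and 8 in AB1. Gpx3, the secreted glutathione peroxidase that the kidney makes, was at 2577, 3098 and 3590 CPM in Renca and at 83.4, 195 and 380 CPM in AB1 (log2 -3.93 ± 0.18, adjusted p = 3.59e-16), and catalase, Cat, at 255 to 306 CPM against 65.8 to 96 CPM (-1.85 ± 0.05). The glutathione transferases Gsta3 (-7.55 ± 0.23), Gsta1 (-5.33 ± 0.38) and Gsta2 (-4.82 ± 0.34) were nearly absent from AB1, with the reservation that Gsta1 and Gsta2 are close copies. Gsto1 (2.57 ± 0.08), Aldh3a1 (5.47 ± 0.33) and the metallothionein Mt2 (1.92 ± 0.23) ran toward AB1. Of 14 lipid and sterol synthesis genes 10 were higher in Renca, such as Fdps (-1.43 ± 0.10) and Fasn (-0.74 ± 0.07), whereas the elongase Elovl6 was higher in AB1 (2.90 ± 0.11). Of 26 glycolysis and hypoxia genes 12 were higher in AB1 and 7 in Renca, the largest in each direction being Egln3, an oxygen sensor (3.60 ± 0.43, and 2.86 without AB1 library 3), and Ndrg1 (-2.89 ± 0.31).

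Proliferation genes were modestly higher in AB1. Of 23 tested, 15 were higher in AB1 and 6 in Renca, none past 2-fold, with a median log2 change of 0.44. Mki67 was at 194, 516 and 614 CPM in AB1 and at 238, 296 and 355 CPM in Renca (0.77 ± 0.12, adjusted p = 3.65e-06). The lowest AB1 value was that of library 3, and the other 11 AB1 tumours were above every Renca tumour. The mitotic genes Plk1 and Cdc20 gave 0.75 ± 0.13 and 0.75 ± 0.12. The 6 genes higher in Renca included Pcna (-0.55 ± 0.07) and Mcm3 (-0.61 ± 0.10), which act in DNA replication, both without overlap. With the first AB1 flow cell alone, 7 and 9 proliferation genes passed toward AB1.

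Imprinted genes, expressed from one parental copy, gave 11 of 22 higher in Renca and 5 in AB1. H19, a fetal RNA, was at 260, 539 and 688 CPM in AB1 and at 16.3, 98.1 and 223 CPM in Renca (log2 2.11 ± 0.29, adjusted p = 2.77e-07). The maternally expressed RNAs Rian and Meg3 of chromosome 12 were higher in Renca (-1.55 ± 0.24 and -1.44 ± 0.24), as was Kcnq1ot1 (-2.74 ± 0.13), which lies antisense within Kcnq1. In none of these genes can the data show which copy was read.

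By position, the median log2 change of chromosome 16 was -0.33, with 30.6% of its tested genes higher in AB1, and those of chromosomes 2 and 17 were both -0.20, whereas that of chromosome X was 0.19. In the responders the same medians were -0.32, -0.20, -0.09 and 0.15. There were 10 runs of at least 5 neighbouring tested genes past 2-fold in the same direction. In Renca these held the homeobox genes Rhox2a to Rhox5 on chromosome X (8 genes, median log2 -9.07), the Serpinb9 serpins on chromosome 13 (7 genes, -8.79) and Abcc3 to Mycbpap on chromosome 11 (5 genes, -4.63). In AB1 they held the Gbp genes on chromosome 5 (6 genes, 2.50), the Ifit genes on chromosome 19 (5 genes, 2.27) and a stretch of beta protocadherins (5 genes, 2.98). Rhox2, Serpinb9, Gbp and Mup genes are families of close copies, so reads could have been split among members, and a run of copies is less than that many separate measurements. Xist, of the inactive X chromosome, did not pass (-0.09 ± 0.06, adjusted p = 0.178), at 369 to 545 CPM in AB1 and 408 to 530 CPM in Renca.

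Host tissue taken with the tumour was checked from 4 lists. Of 8 skin genes 6 were higher in AB1, but this rested on single libraries: the summed list had a median of 13.7 CPM in AB1 and 32 CPM in Renca, with AB1 library 3 at 1637 CPM. Without that library 3 of the genes passed toward AB1. Of 14 skeletal muscle genes 1, Ryr1, passed (log2 1.16 ± 0.47, adjusted p = 0.0281, and 1.05 without AB1 replicate 12, which ended the call), and the summed muscle list ran from 56.5 to 4159 CPM in AB1 and from 86.9 to 2035 CPM in Renca. Of 9 fat genes 8 were higher in AB1, such as Fabp4 (log2 2.12 ± 0.24) and Adipoq (2.19 ± 0.58, overlapping groups), and 1, the lipid droplet gene Plin4, was far higher in Renca at 570, 775 and 1022 CPM against 3.58, 59.4 and 181 CPM (-3.64 ± 0.43, adjusted p = 2.55e-08). Plin4 alone set the summed fat list higher in Renca, at 669 to 1132 CPM against 110 to 771 CPM. Of 6 red blood cell genes 1 was higher in each line and 4 did not pass, the summed list running from 47.9 to 652 CPM in AB1 and from 51 to 185 CPM in Renca, and the count toward AB1 ran from 0 to 5 when single libraries were left out, reaching 5 without AB1 replicate 5 or 6. The part of host tissue in the results above was not tested. With the first AB1 flow cell alone, 4 and 2 fat genes passed toward AB1.

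The same comparison was made in the responders. Of 15623 genes tested there, 1155 were past 2-fold toward AB1 (7.39%) and 1505 toward Renca (9.63%). Among 15349 genes tested in both classes, 1861 were past 2-fold in the same direction in both, which is 74.9% of the non-responder list and 72.3% of the responder list. These groups share no tumours. Only Lcn2 was past 2-fold in opposite directions, at log2 -2.31 in the non-responders and 1.66 in the responders. Among genes higher in Renca, Pax8 gave -10.39 and -10.38, Cdh16 -12.87 and -13.09, Col4a4 -7.79 and -7.65 and Hoxb9 -6.69 and -6.84 in non-responders and responders, and none of these 4 passed the test of the difference described next. Several genes higher in AB1 had a larger change in the non-responders: Col10a1 gave 10.16 and 7.55, Agtr2 8.17 and 5.53, Rufy4 7.91 and 5.16, Mmp9 6.98 and 4.95 and Fgfr2 6.30 and 5.36, all passing that test. Mgp (7.67 and 7.26) and Hmga2 (7.19 and 6.67) did not pass it.

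The difference of the line effect between the classes was tested directly over all 48 libraries, with flow cell in the model. Of 16509 genes, the AB1 over Renca change was larger in the non-responders for 4393 (26.6%) and smaller for 3048 (18.5%). Larger and smaller refer to the signed log2 change, so a smaller change can also be a larger Renca excess. Immune genes were among the smaller ones. Cxcr2 gave 3.35 in the non-responders and 5.20 in the responders (difference -2.02, adjusted p = 8.26e-05), and Lcn2 gave the difference -3.94 (adjusted p = 7.24e-08). Themis gave -4.63 and -2.34 (difference -2.28, adjusted p = 5.04e-08), and Pdcd1lg2, the second PD-1 ligand, which did not pass in the non-responders (0.23), gave 2.76 in the responders (difference -2.53, adjusted p = 2.38e-05). Of 18 T cell genes 14 were smaller and none larger, of 9 MHC class II genes 8 were smaller and none larger, and of 9 neutrophil genes all 9 were smaller. In non-responders and responders the median log2 changes were -0.66 and 0.10 for T cell genes and -0.67 and 0.30 for MHC class II. For neutrophil genes they were 0.55 and 2.57. Of the interferon lists, 1 of 18 interferon-gamma genes and 8 of 24 type I genes were smaller and none larger, with median differences of -0.49 and -0.46. Matrix genes ran the other way, with 16 of 26 collagens larger and 1 smaller, Col3a1 giving 0.51 and -0.63 (difference 1.12, adjusted p = 1.66e-05).

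The 8 genes with the smallest p for this difference were Card9, Fuca2, Prdx2, Kif3b, Hsd11b1, Scly, Serpinb9b and Ostm1. Hsd11b1, which activates glucocorticoids, did not pass in the non-responders (log2 -0.17 ± 0.18, adjusted p = 0.392) and was higher in AB1 among responders (1.85, difference -2.05, adjusted p = 7.61e-09). Card9, an adaptor of myeloid lectin receptors, gave -2.07 and -0.98 (difference -1.08), and Fuca2, a lysosomal fucosidase, -2.51 and -1.41 (difference -1.09, adjusted p = 3.12e-09 for both). In 6 of the 8, Card9, Fuca2, Kif3b, Scly, Serpinb9b and Ostm1, the Renca excess was larger in the non-responders, Kif3b giving -0.53 and -0.01. Prdx2, a peroxiredoxin, was the one of the 8 with a larger AB1 excess, with 0.44 in the responders and a difference of 0.57.

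**Figure D5:**
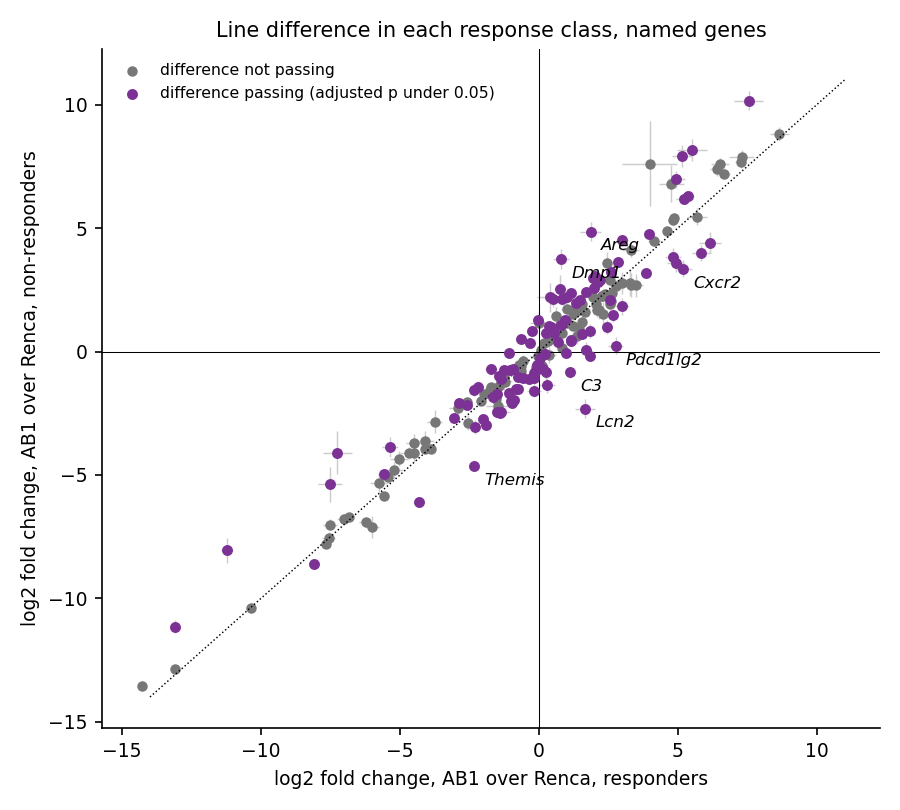
Each point is one gene named in the text, with its log2 fold change, AB1 over Renca, in responders on the horizontal axis and in non-responders on the vertical axis, and SE bars on both, leaving out genes with 3 or fewer counts in one group. The dotted line marks equal change, purple points differ between classes at an adjusted p under 0.05, and Lcn2, at -2.31 and 1.66 in non-responders and responders, and C3, at -0.84 and 1.13, lie in the quadrant where the direction is opposite.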

How the data were processed

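RNA from whole frozen tumours was sequenced in 24 AB1 and Renca non-responder tumours, and 24 responder tumours served as a second comparison. The deposited table gives 1 whole-number count per gene and library, made by the authors; per the submitters' processing notes reads were handled with HISAT2 2.0.4, StringTie 1.3.0 and bcl2fastq 2.18.0.12. The notes name human builds although the identifiers are mouse, so for the mouse build, the annotation and strand use the sources used here give no statement. Of 39637 identifiers, 39461 matched GENCODE M21 (GRCm38), which supplied symbols and positions.

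Counts were tested with edgeR 4.0.16 (R 4.3.3; TMM scaling, filterByExpr, quasi-likelihood F test, Benjamini-Hochberg adjustment at 0.05 over all genes tested), and against a 2-fold change with glmTreat. Positive log2 values are higher in AB1. CPM values use the TMM library sizes. The difference of the line effect was fitted over 48 libraries with flow cell and response within each line. On simulated counts of 15647 genes, 15447 were left unchanged and 14 of these were called. Of 50 genes changed by a log2 of 2, 49 were called and 46 were called past 2-fold. Of 50 changed by 0.5, 35 were called. Far fewer genes were changed there than passed in the data, and flow cell and day of removal were not simulated. These rates may therefore not hold for the data. Intervals and floors (3 counts over a group) cover counting error only.

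Named genes were, in each direction, the 12 largest changes past 2-fold whose mean log2 CPM reached 3, without unnamed, clone-based and receptor segment symbols, the 4 largest passing changes of each gene list, the 10 most abundant genes of each group, the 8 smallest p of the difference, a fixed panel and the tested Hox genes. Further members of lists were named after their values were seen: Abcc3, Ap1m2, Areg, Bap1, Bglap, Bmp4, Btc, Calb2, Cat, Ccl11, Ccl2, Ccr2, Cd79a, Cdh11, Cldn4, Col4a1, Col4a2, Col4a6, Col7a1, Ctss, Cubn, Cxcl2, Emx2, Eya1, Fasn, Fcgr1, Fgf2, Fgf7, Foxc1, Gas6, Gbp2, Gpx3, Gsto1, Havcr2, Hgf, Igf1, Krt7, Ly6c2, Mcm3, Ms4a1, Msr1, Mt2, Nf2, Pcna, Prrx1, Siglecf, Spint1, Tnc, Trp53, Vegfa and Zbp1. Some genes that the rule takes are not reported here. The comparison, the lists and the panel were chosen with earlier results of these data known. The largest correlation of deviations between libraries with the same number was 0.277 and the smallest -0.272, and 6 of 12 were over 0.1. The main fit did not pair tumours by number, and these values cannot exclude a pairing. Alternatives were other scalings, filters, DESeq2 1.42.0, covariates, flow cell pairs and leaving out libraries. The list, chromosome and spread values under these settings, and the difference without AB1 library 3, were added after the data were seen.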

Additional observations from a re-analysis of the deposited data

Results flagged for a closer look

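Of 216 named genes with a test of the difference, 107 had an AB1 over Renca change that differed between non-responders and responders at an adjusted p under 0.05, 55 of them larger (a positive difference of log2 changes) and 52 smaller in the non-responders, beside 26.6% and 18.5% of all genes tested. No cause was tested, and each difference is given below with its sign.

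For T and NK cell genes and checkpoints the differences were Cd3e -0.88, Cd8a -1.42, Themis -2.28, Gzmk -1.08, Klrk1 -1.05, Ncr1 -1.48, Cd274 -1.67, Pdcd1lg2 -2.53 and Nectin2 -0.52. For antigen presentation the differences were H2-Aa -0.87, H2-Oa -1.08, H2-D1 -0.77, H2-K1 -0.70, Tapbp -0.69 and Ctss -0.73. For myeloid cells the differences were Ccr2 -1.04, Csf1r -0.29, Fcgr1 -0.84, Msr1 -0.71, Ly6c2 -1.19, Plac8 -0.68, Gpnmb 1.47, Card9 -1.08, Psap -0.63, Fuca2 -1.09 and Ostm1 -0.76. For granulocytes the differences were Lcn2 -3.94, Cxcl2 -1.72, Cxcr2 -2.02, S100a9 -1.59, Cpa3 -1.10 and Fcer1a -1.82. For chemokines and cytokines the differences were Ccl2 -1.21, Cxcl5 -2.02, Cx3cl1 0.81, Csf2 -1.10 and Il15 -0.48. For complement and vessel genes the differences were C2 -0.72, C3 -1.98, Eng -0.24 and Pecam1 -0.29.

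For matrix the differences were Col1a1 0.99, Col1a2 0.99, Col3a1 1.12, Col4a5 1.53, Col10a1 2.59, Bgn 0.62, Mmp9 2.05, Mmp10 0.79, Fap 1.17, Dmp1 2.85 and Phex 2.57. For epithelial and kidney genes the differences were Cdh1 -0.79, Cdh3 2.12, Cldn3 3.17, Cldn4 3.20, Krt7 1.34, Krt8-ps 1.96, Spint1 1.40 and Cubn 1.11. For mesenchymal genes the differences were Cdh2 1.02, Cdh11 0.40, Fn1 0.97, Vim 0.67, Prrx1 0.63, Prrx2 0.71 and S100a4 1.24. For Hox genes the differences were Hoxa3 0.32, Hoxa9 0.55, Hoxa10 0.46, Hoxb2 0.63, Hoxb8 0.35 and Hoxd9 0.23. Without AB1 library 3 the differences of Cldn3 (0.63), Spint1 (0.44), Hoxb8 (0.26), Adipoq (1.43), Fcer1a (-1.78), Meg3 (0.64), Rian (0.64) and Xist (-0.28) no longer passed, and those of Cdh3 (-0.56) and Cldn4 (-0.47) changed sign without passing.

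For growth factors, receptors and Wnt genes the differences were Areg 3.02, Bmp4 0.80, Fgf2 0.68, Hgf 0.62, Fgfr2 0.94, Dkk2 0.93, Wnt6 -1.04, Agtr2 2.69 and Rufy4 2.76. For tumour suppressors and the cell cycle the differences were Cdkn2a -0.52, Mtap -0.18, Cdkn1a 0.38, Trp53 0.23, Nf2 0.21, Vhl -0.44 and Cdc20 0.51. For metabolism and fat the differences were Prdx2 0.57, Cat -0.18, Gsto1 0.60, Elovl6 0.71, Fasn 0.31, Hsd11b1 -2.05, Scly -0.95, Fabp4 1.29 and Adipoq 1.78. For imprinted and X-linked genes and neighbours in runs the differences were H19 1.60, Meg3 0.78, Rian 0.78, Kcnq1ot1 -0.75, Xist -0.32, Rhox5 0.65, Abcc3 -0.98, Serpinb9b -1.78 and Kif3b -0.51.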

How the results depend on the processing

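The count of genes passing, 11954, ran from 10036 (first flow cells of both lines) to 15432 (no filter on low counts) over the settings tried, and from 11869 to 12252 when each library was left out in turn. The count past 2-fold, 2608, became 4261 with no filter and was between 2258 and 2957 otherwise. Of the 2608 genes, 1918 (73.5%) were past 2-fold in the same direction in all 4 pairings of flow cells and 2446 (93.8%) without each library in turn. The difference between classes, 7441 genes, ran from 6908 to 7955. Blocking on the replicate number, 11928 genes passed, 2622 were past 2-fold and 7347 differed between classes; 2 of 12 libraries correlated best with their own number, and the block ended the calls of Pdcd1, Ryr1, Tchh and Ap1m2 among the named genes and added that of Hoxb2.

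Of the list counts, those that moved by over 1.5 times were, between the first flow cells of both lines, interferon-gamma (18 to 5), NK cells (4 to 0), neutrophils (5 to 3), chemokines (14 to 9), cytokines (9 to 5), proliferation (15 to 7), imprinted genes (11 to 7), tubule genes (5 to 3), vessel genes (6 to 1) and fat (8 to 4). Between the first AB1 and the second Renca flow cell they were NK cells (1), neutrophils (3), lipid synthesis (10 to 6), proliferation (9), tubule genes (3), complement (6 to 3), vessel genes (3) and fat (2). With the second AB1 flow cell they were T cells (10 to 4), MHC class II (8 to 4 and 2), skin (6 to 3 and 2) and, against the first Renca flow cell, vessel genes (2). DESeq2 gave 9 tubule and 5 B cell genes, the filter at a CPM of 1 gave 3 mast cell and 3 skin genes, upper quartile scaling and no filter each gave 3 MHC class I genes, and the purity covariates and the block each gave 2 skin genes. The 1 red blood cell gene higher in AB1 became 3 with upper quartile scaling and with all 4 groups in 1 fit, and 0 with library totals alone, no filter, the filter at a CPM of 1, the purity covariates, the block, without AB1 libraries 3 and 7, and in 3 of the 4 flow cell pairs. Leaving out 1 library at a time gave 0 to 5 red blood cell genes, 3 to 7 MHC class I genes, 5 to 8 Wnt genes higher in Renca and 3 to 6 skin genes. Without AB1 libraries 3 and 12 there were 8 Wnt and 3 MHC class I genes, and without 3 and 7 there were 8 Wnt and 2 skin genes. The flow cell pairs hold fewer tumours, and no cause of any of these moves was tested.

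Among 216 named genes with a fit, 1 changed sign with a call in the main or the other setting: Ap1m2 gave -0.08 without AB1 libraries 3 and 7. Changes of sign in genes called in neither setting were not counted. The difference between classes changed sign for Cdh3 (-0.56), Cldn4 (-0.47) and Ap1m2 (-0.94) without AB1 library 3 and, with the purity ratios as covariates, gave -0.20, -0.04 and -1.64; the cause was not tested. Leaving out single libraries ended the calls of 4 named genes. The medians of chromosomes 16, 2, 17 and X kept their sign in every setting run. At these depths, a gene at 0 in all 12 AB1 libraries may lie anywhere under 0.0103 CPM.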

Other observations

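Some gene groups outside the comparisons above held single genes that differed between the lines. Csn3, a casein of milk, was at 19.7, 23.2 and 30.9 CPM (lowest, median and highest library) in the Renca non-responders and at 0, 0.0401 and 1.18 CPM in AB1 (log2 -7.11 ± 0.46, adjusted p = 2.94e-13), and every Renca tumour held it. The other 3 mammary gland genes in the table did not pass the filter on low counts. Of 14 complement genes 6 were higher in Renca and 3 in AB1, beside 38.1% and 38.3% of all genes tested. The complement count toward Renca thus lay near the background. C2, a protease of the classical pathway, was at 112, 136 and 163 CPM in Renca and at 25.4, 36.9 and 94.9 CPM in AB1 (log2 -1.53 ± 0.17), and C3, the central component, at 875, 1067 and 1412 CPM against 162, 502 and 1473 CPM (-0.84 ± 0.22, adjusted p = 0.00155), the latter with overlapping groups. In the responders C3 was higher in AB1 (1.13), so the line difference had the opposite sign there. With only the first AB1 flow cell, C3 in the non-responders gave -0.67 and -0.56 against the first and second Renca flow cells and did not pass.

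Of 15 vessel genes 6 were higher in AB1 and 3 in Renca, with summed levels of 888 to 1196 CPM in AB1 and 944 to 1222 CPM in Renca. The vessel count toward AB1 lay near the background of 38.3% of all genes, and the summed levels overlapped. Eng, endoglin, was lower in AB1 at 74.9, 97.3 and 114 CPM against 163, 183 and 225 CPM (log2 -1.02 ± 0.07), while the endothelial adhesion gene Pecam1 was slightly higher in AB1 (0.40 ± 0.06, overlapping groups). Of 21 respiratory chain genes 11 were higher in AB1 and 5 in Renca, none past 2-fold.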
